A study of Mus musculus with 12 samples.

Results

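The 10 genes described here, known for their activity in the mouse embryo at the two-cell stage, are Usp17lc, Tcstv1, Tcstv3, Zfp352, Tdpoz1 to Tdpoz4, Arg2 and Tmem92. They were chosen by name and followed through 12 RNA-seq libraries of embryos and embryonic stem (ES) cells. All 10 are among the 22619 gene symbols of the expression tables, and 8 of the 10 are above 0 in at least 1 library. The embryos are of strain C57BL/6. They comprise 2 wild-type libraries (control embryo), 3 libraries labelled Dcaf11 knockout (KO embryo) and another 3 with the same genotype label whose title adds that they arrested (KO arrest). The ES cells are of strain 129Sv and are labelled wild type (control ESC, 2 libraries) or Dcaf11 knockdown (KD ESC, 2 libraries). The Dcaf11 protein is known to select targets for a cullin ubiquitin ligase. The labels give no embryo stage, no number of embryos or cells in a library, and no knockout allele or knockdown reagent. Whether replicate libraries are independent embryos or cultures is not said either, and p-values cover only the spread between the libraries, which may be technical.

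Shortly after fertilization the mouse embryo switches on its own genome. A set of genes peaks in this first wave and is then shut off again, and many of its members belong to multicopy families or start in retroelement sequence. In cultures of ES cells the same set is known to be active only in a small and changing fraction of cells. The transcription factor Dux and the chromatin proteins Dppa2 and Dppa4 are known as activators of the set, and KAP1 (Trim28), Kdm1a and chromatin assembly factor as repressors. Among the genes followed here, Usp17lc encodes a deubiquitinase of the Usp17 family, Zfp352 a zinc-finger protein, the Tdpoz genes proteins with TRAF and BTB/POZ domains akin to the CUL3 adaptor Spop, Arg2 the mitochondrial arginase, which splits arginine into ornithine and urea, Tmem92 a transmembrane protein, and the Tcstv genes two-cell-stage variable group proteins.

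Expression is given as FPKM (fragments scaled to gene length and library size), so levels can be compared between genes per length. Reads per base at 1 FPKM, a measure of relative depth, ran from 0.373 in KO arrest 1 to 2.01 in control embryo 1. Between 6573 and 12061 genes reached 1 FPKM, with the fewest in control embryo 1. The targeted gene Dcaf11 was at 2.82 and 14.3 FPKM in control embryos, at 3.99, 2.84 and 0.184 in KO embryos and at 4.43, 0.422 and 6.02 in KO arrest libraries, so its level does not bear out the knockout label in every library (limma adjusted p = 0.411 and 0.463). Where the deleted part of the gene lies is not given, and the names KO embryo and KO arrest stand for the labels only. It was at 6.48 and 4.52 in control ESC and at 1.69 and 1.83 in KD ESC (adjusted p = 0.0521). All 10 pluripotency markers were at 1 FPKM or more in every ES cell library. Of 16 oocyte markers, 13 were so in both control embryos, with a summed level of 1392 to 3857 FPKM there, 615.6 to 762 in KO embryos and 187 to 381 in KO arrest libraries. The 10 trophectoderm markers summed to 1.10 and 30.9 FPKM in control embryos, 32.2 to 34.8 in KO embryos and 42.5 to 57.2 in KO arrest libraries, while Cdx2, the defining factor of that lineage, was listed at 0 in every embryo library. Most of the rise was Tfap2c (means of 2.82, 26.15 and 23.15 FPKM) and Tead4 (0.654, 5.41 and 17.4). The means of Gata3 (7.02, 0.843 and 2.10) and Eomes (2.22, 0.173 and 0.608) went the other way, through 1 control library.

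RefSeq has a promoter window for 4 of the 10 genes, Zfp352, Tdpoz1, Tdpoz4 and Usp17lc. The 250 bases before the annotated start are shown here because they differ between genes that are otherwise grouped by stage. Their coordinates are of build GRCm38.p6, while the expression tables use mm9. Capitals mark the letters TAATCC, or their reverse complement GGATTA, a sequence that Otx-type homeodomain proteins are known to bind.
Zfp352, chr4:90218570-90218819, plus strand: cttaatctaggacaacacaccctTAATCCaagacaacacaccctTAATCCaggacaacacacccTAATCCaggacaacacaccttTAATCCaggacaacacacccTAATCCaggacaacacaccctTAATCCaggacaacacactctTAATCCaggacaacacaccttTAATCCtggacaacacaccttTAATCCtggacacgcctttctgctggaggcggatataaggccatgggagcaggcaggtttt
Tdpoz1, chr3:93676284-93676533, minus strand: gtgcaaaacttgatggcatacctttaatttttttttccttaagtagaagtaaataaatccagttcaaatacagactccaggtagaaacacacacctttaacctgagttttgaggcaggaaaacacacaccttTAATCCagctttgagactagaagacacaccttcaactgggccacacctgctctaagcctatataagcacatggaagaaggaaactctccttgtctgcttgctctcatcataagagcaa
Tdpoz4, chr3:93796148-93796397, plus strand: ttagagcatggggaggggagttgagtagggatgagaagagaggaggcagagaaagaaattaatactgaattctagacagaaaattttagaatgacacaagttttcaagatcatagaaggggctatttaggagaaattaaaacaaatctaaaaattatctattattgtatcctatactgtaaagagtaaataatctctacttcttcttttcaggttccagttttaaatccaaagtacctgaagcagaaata
Usp17lc, chr7:103416446-103416695, plus strand: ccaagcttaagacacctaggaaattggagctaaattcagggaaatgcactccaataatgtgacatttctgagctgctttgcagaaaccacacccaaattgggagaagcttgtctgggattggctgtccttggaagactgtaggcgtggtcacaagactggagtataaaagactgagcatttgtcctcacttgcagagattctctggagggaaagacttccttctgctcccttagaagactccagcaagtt

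The window of Zfp352 is a tandem repeat in which TAATCC stands 9 times, each time on the strand of the gene. Of all 32851 windows of this length, searched on both strands, 6.25% hold TAATCC at least once and 0.00304% hold it at least 9 times, which is the Zfp352 window itself. The window of Tdpoz1 holds it 1 time, and those of Tdpoz4 and Usp17lc hold none. The letters TATAAA, searched on both strands, stand 1 time in the Usp17lc window, starting 88 bases before the start, and in 12.4% of all windows. The known binding motif of Dux, searched on both strands, is in 0 of the 4 windows and in 0.0304% of all. These matches describe letters and do not show binding.

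Copies of these genes limit what a single value means. In the GENCODE M21 transcripts, 66.2% of the 50-base words of Tdpoz3 also occur in a transcript of another gene, and so do 48.3% for Tdpoz2, 44.7% for Usp17lc, 44.4% for Tdpoz1 and 41.2% for Tdpoz4. For Zfp352 it is 7.09%, for Tmem92 1.93% and for Arg2 0%. Among the named copies, Usp17lc shares most with Usp17ld (41.5% of its words), which was listed at 0 in all 12 libraries. Values of Arg2, Zfp352 and Tmem92 are therefore the least exposed to copies, although read strand is not stated and Arg2 overlaps the neighbouring gene Vti1b. Usp17lc and Tmem92 each overlap a row that carries no gene name.

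Tcstv1 and Tcstv3 were listed at 0 in all 12 libraries. Both lie on the unplaced contig Un_random of mm9 (Tcstv1 at 37344 to 38715, Tcstv3 at 3053 to 4452). All 98 genes on random contigs were listed at 0 in each of the 12 libraries. The zero is thus shared by every gene placed there and is not read as absence of the transcripts. The other 8 genes are plotted by library.

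**Figure D1:**
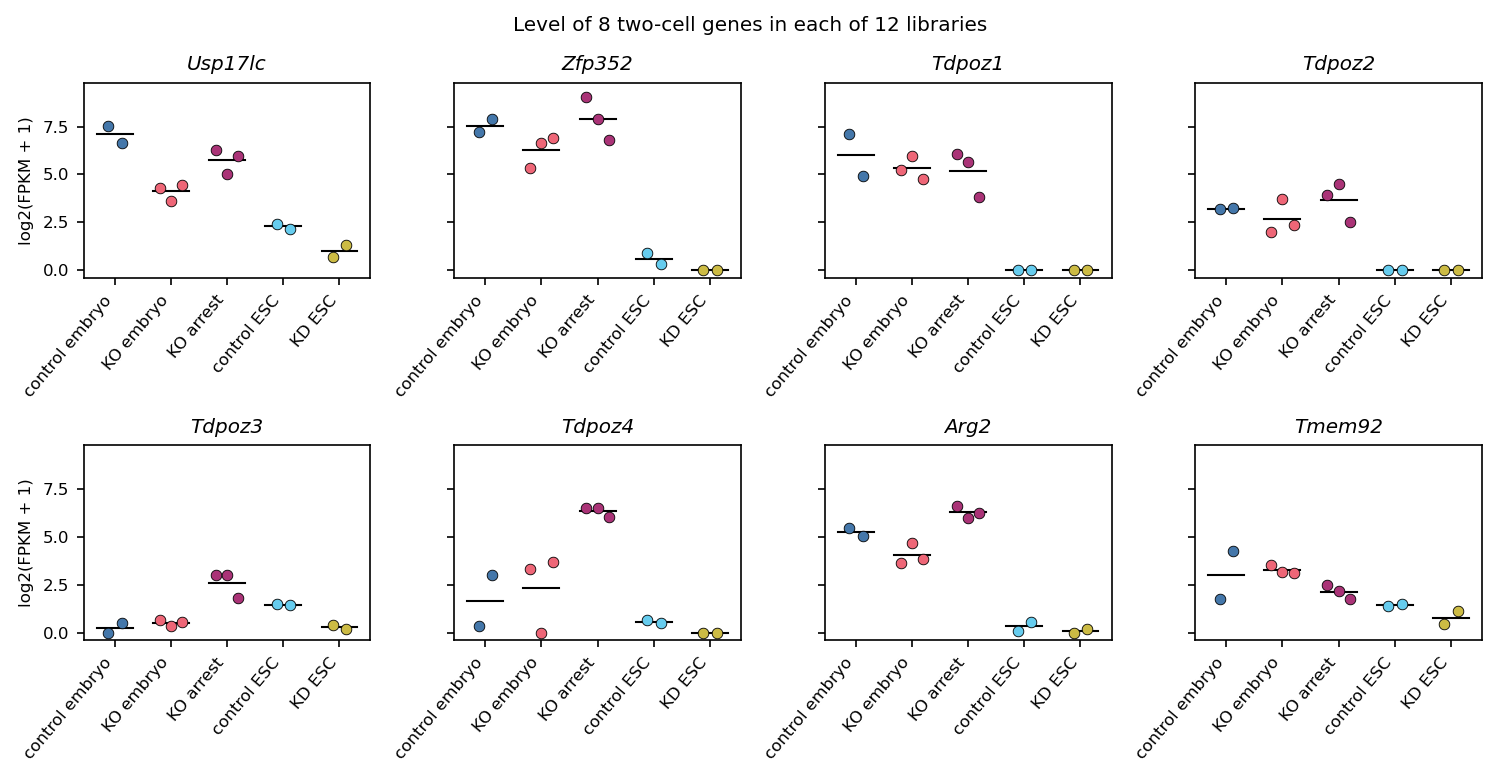
Level of 8 of the genes as log2(FPKM + 1) in each of 12 libraries (points) with the mean of each group (line). Most genes are high in embryos and near 0 in ES cells, Usp17lc is lowest among embryos in the 3 KO embryo libraries, and Tdpoz4 is highest in the 3 KO arrest libraries.

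Usp17lc (mm9 chromosome 7, 110565210 to 110567688) was at 184 and 99.3 FPKM in control embryos, at 18.8, 11.1 and 20.9 in KO embryos and at 77.1, 31.6 and 61.8 in KO arrest libraries. It was at 4.32 and 3.49 FPKM in control ESC and at 0.624 and 1.50 in KD ESC. The 5 groups follow each other without overlap in the order control embryo, KO arrest, KO embryo, control ESC, KD ESC. The level in control embryos exceeds that of 97.6% and 99.0% of all genes. Coverage behind these values was 122 and 370.5 reads per base in control embryos, 11.01 to 27.5 in KO embryos and under 4 reads per base in ES cells, from 3.92 down to 0.354.

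Zfp352 (chromosome 4, 89885511 to 89892378) had the highest mean FPKM of the 10 genes in each of the 3 embryo groups. It was at 148 and 237 FPKM in control embryos, at 39.5, 97.5 and 119 in KO embryos and at 525, 238 and 112 in KO arrest libraries. In control ESC it was at 0.868 and 0.235 FPKM, and it was listed at 0 in both KD ESC libraries. KO arrest and control embryos overlap, and KO embryos lie below both controls.

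The 4 Tdpoz genes lie within chromosome 3, from Tdpoz2 (93455493 to 93456585) and Tdpoz1 (93473255 to 93480205) to Tdpoz4 (93600320 to 93601432) and Tdpoz3 (93629942 to 93631039). Tdpoz1 was at 136 and 29.04 FPKM in control embryos, at 36.9, 61.8 and 25.9 in KO embryos, at 66.7, 49.04 and 13.4 in KO arrest libraries, and listed at 0 in all 4 ES cell libraries. Tdpoz2 was lower, at 8.13 and 8.51 FPKM in control embryos, at 2.97, 12.4 and 4.19 in KO embryos and at 14.2, 21.4 and 4.83 in KO arrest libraries, and was also listed at 0 in all ES cell libraries. The 3 embryo groups overlap for both of these genes.

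Tdpoz4 had another pattern: 0.265 and 7.06 FPKM in control embryos, 9.17, 0 and 11.7 in KO embryos, and 89.2, 88.9 and 63.9 in KO arrest libraries. Every KO arrest library lies above every other library for this gene. Tdpoz3 was low throughout but followed the same order within embryos, with 0 and 0.402 FPKM in control embryos, 0.596, 0.273 and 0.500 in KO embryos and 7.18, 7.08 and 2.46 in KO arrest libraries. In ES cells Tdpoz3 was at 1.87 and 1.69 FPKM in control ESC, above every control and KO embryo library, and at 0.334 and 0.135 in KD ESC. Tdpoz4 was at 0.585 and 0.412 FPKM in control ESC and listed at 0 in both KD ESC libraries.

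The members of the Tdpoz family thus took unlike shares of the family's summed FPKM. Tdpoz1 made up 94.2% and 64.5% of the sum over Tdpoz1 to Tdpoz4 in control embryos and 61.2% to 83.0% in KO embryos, but 15.9% to 37.6% in KO arrest libraries. Tdpoz4 made up 50.3%, 53.4% and 75.5% of the sum in KO arrest libraries, against 0.183% and 15.7% in control embryos and 0% to 27.7% in KO embryos. In control ESC the sum was only 2.46 and 2.10 FPKM, of which Tdpoz3 made up 76.2% and 80.4%. Because the copies share sequence, these shares depend on how the authors assigned reads to them, for which no source used here gives the method.

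**Figure D2:**
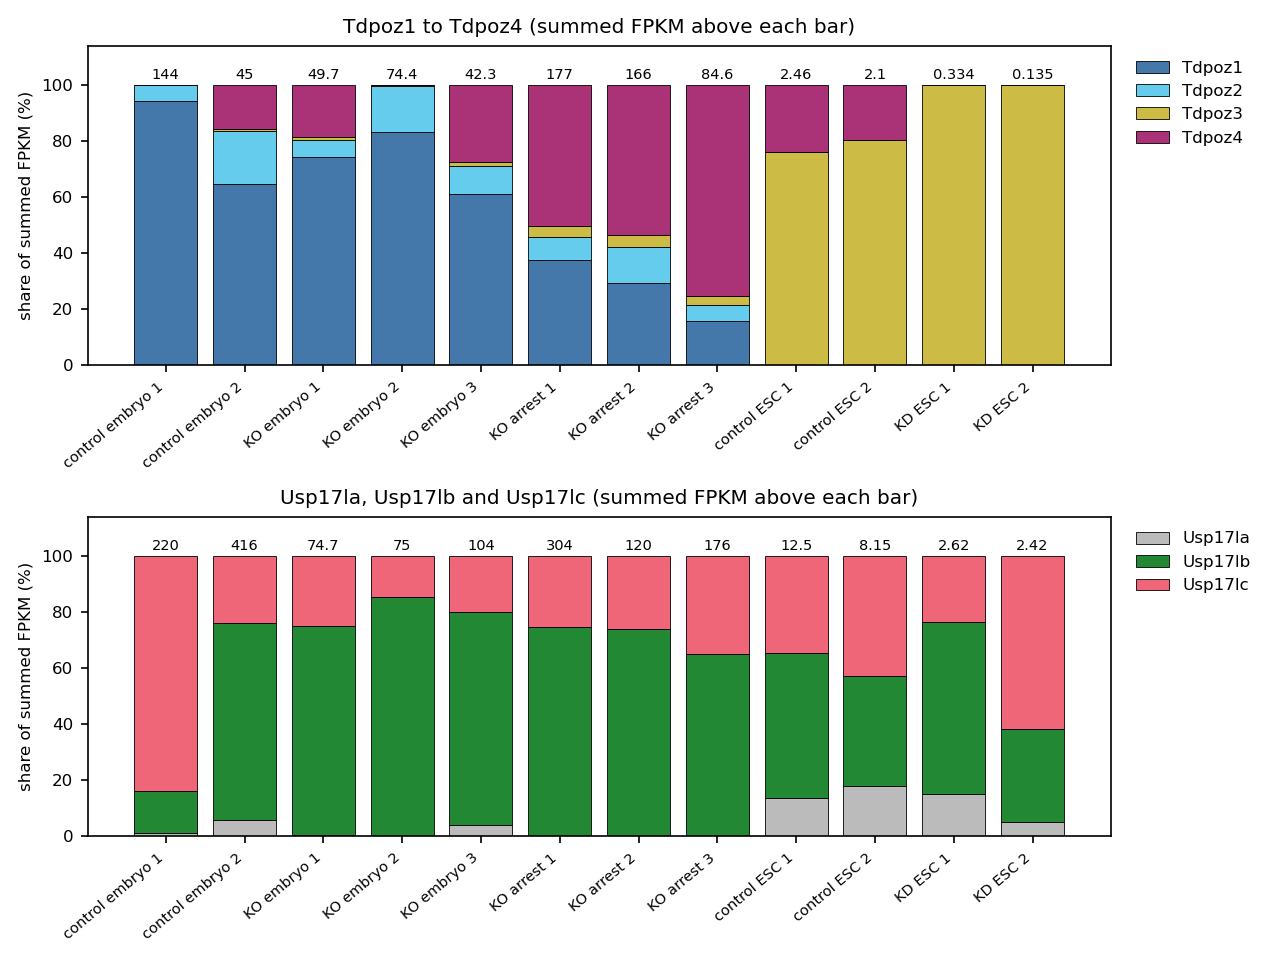
Share of the summed FPKM (percent) taken by each copy in each library, for Tdpoz1 to Tdpoz4 (top) and for Usp17la, Usp17lb and Usp17lc (bottom), with the sum in FPKM above each bar. Tdpoz4 is the largest share in the 3 KO arrest libraries and Tdpoz3 in the 4 ES cell libraries, and Usp17lc is 83.9% of its sum in control embryo 1 but 23.9% in control embryo 2.

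Arg2 (chromosome 12, 80231775 to 80257288) was at 43.9 and 31.6 FPKM in control embryos, at 11.4, 24.7 and 13.4 in KO embryos and at 97.4, 62.2 and 75.8 in KO arrest libraries. The 3 embryo groups do not overlap. In ES cells it was at most 0.468 FPKM. Tmem92 (chromosome 11, 94638531 to 94693316) was at 2.34 and 18.1 FPKM in control embryos, which enclose the 10.6, 8.16 and 7.60 of the KO embryos and the 4.68, 3.51 and 2.43 of the KO arrest libraries. It was at 1.60 and 1.89 FPKM in control ESC and at 0.363 and 1.16 in KD ESC.

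Wild-type embryos were set against wild-type ES cells to see how far the genes separate the sample types. Of the 8 genes tested, 5 were called higher in control embryos (limma, adjusted p under 0.05 over all genes of the fit of 12 libraries; 12.6% of all 14447 genes tested were called higher). Zfp352 stood at 192 ± 63.3 FPKM (SD, n = 2) against 0.551 ± 0.448 (n = 2), a log2 fold change of 6.95 ± 0.71 (SE, adjusted p = 3.59e-05) on the log2(FPKM + 1) scale, which understates changes of low genes. Usp17lc was at 142 ± 60.0 FPKM (SD) against 3.91 ± 0.590 (log2 fold change 4.80 ± 0.52), and Arg2 at 37.7 ± 8.66 against 0.275 ± 0.272 (4.92 ± 0.44). Tdpoz1 and Tdpoz2, which were listed at 0 in both control ESC libraries, passed as well (adjusted p = 0.000224 and 0.00304). In these 5 and in Tmem92 both embryo libraries lay above both ES cell libraries, as in 19.2% of all genes tested. Zfp352, Arg2, Tdpoz1 and Tdpoz2 reached 1 FPKM in no ES cell library. They entered the test only through embryos, where they are high, so their calls add no support to the count of 5. Tdpoz3 was the only one of the 8 called lower in embryos (−1.23 ± 0.43, adjusted p = 0.0335), where 40.8% of all genes were, and its libraries did not overlap, as for 55.2% of all genes. That call was lost with no filter on low values (adjusted p = 0.0512), with median-of-ratios scaling (0.0785), without control embryo 1 (0.142) and without any 1 of the 4 ES cell libraries (0.0513 to 0.128). Tdpoz4 (1.09 ± 1.15) and Tmem92 (1.54 ± 0.69) did not pass the test, although Tmem92 did with median-of-ratios scaling (2.31, adjusted p = 0.00828) and without control embryo 1 (2.80, adjusted p = 0.00132). Strain and sample type differ together and cannot be told apart, and fewer active cells cannot be told apart from less RNA per cell in bulk samples. Of 31 other genes of the two-cell stage that were tested, 24 were called higher and 1 lower, among them Ubtfl1, Rfpl4b, Spz1 and Lmx1a (log2 fold changes 5.09, 6.05, 5.56 and 5.54). The median log2 fold change was 4.01 for the 8 genes, 3.77 for these 31 and −1.01 for all genes tested. Rfpl4b, Spz1 and Lmx1a also reached 1 FPKM in no ES cell library. Neither did others of the 31, such as Sp110 (at most 0.722 FPKM in control ESC) and BC080695 (at most 0.596). Such genes entered only through embryos, where they are high, so their calls add no support to the count of 24. The medians of 4.01 and 3.77 include genes of this kind as well.

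KO embryos were set against wild-type embryos, a comparison of genotype labels that the Dcaf11 level did not separate. Usp17lc fell, from 142 ± 60.0 FPKM (SD, n = 2) to 17.0 ± 5.14 (SD, n = 3), 8.36-fold lower (log2 fold change −2.97 ± 0.52, SE; limma adjusted p = 0.0137). It was 1 of 8 members tested to pass, against 1.50% of all 11795 genes called lower, and 0 of 8 were called higher, against 4.86%. Without KO embryo 1 the adjusted p was 0.0569, and without KO embryo 3 it was 0.0525, with log2 fold changes of −3.06 and −3.14. Zfp352 (−1.27 ± 0.65, adjusted p = 0.282) and Arg2 (−1.20 ± 0.47, adjusted p = 0.156) lay below both controls in all 3 KO embryos but did not pass. In all, 3 of 8 members had KO embryos entirely below the controls, an arrangement found in 12.1% of all genes tested. Tdpoz1, Tdpoz2, Tdpoz3, Tdpoz4 and Tmem92 overlapped between the groups, with adjusted p of 0.657 to 0.864. The 95% confidence intervals of these 5 log2 differences were wide, from −2.40 to 1.04 for Tdpoz1 and from −1.72 to 3.04 for Tdpoz4. The median log2 fold change was −0.60 over the 8 members and 0.31 over all genes tested.

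Among the other genes of the two-cell stage, 9 of 31 were called lower in KO embryos (1.50% of all genes were) and 1 higher (4.86%). The 9 included 4 Zscan4 genes, BC080695 (−3.32 ± 0.77), Gm2022 (−3.28 ± 0.77) and Gm5662 (−2.62 ± 0.62), and the gene that rose was Pramel7 (2.26 ± 0.46). Among 19 regulators of the two-cell programme, Dppa2 rose (2.34 ± 0.33, adjusted p = 0.00672) and the rest did not pass. This 1 of 19 is close to the 4.86% of all genes called higher. Dux itself was at 0.202 and 1.70 FPKM in control embryos and between 0.363 and 1.08 in the 6 knockout libraries. Of the 6 relatives tested of these families, none was called (2 at an unadjusted p under 0.05, as were 2659 of all 11795 genes tested). Usp17lb, the most abundant copy of the family after Usp17lc in control embryo 1 and the most abundant in control embryo 2, was at 32.5 and 293 FPKM in control embryos and at 55.6, 63.9 and 79.6 in KO embryos. The controls of Usp17lb thus enclosed its KO embryo values. The summed level of Usp17la, Usp17lb and Usp17lc was 219.5 and 416 FPKM in control embryos against 74.7, 75.0 and 104 in KO embryos. That sum holds Usp17lc itself, so its lower level adds no separate support. The split between Usp17lb and Usp17lc differed between the 2 control libraries, with Usp17lc at 83.9% of the sum in control embryo 1 and 23.9% in control embryo 2. In arginine and polyamine metabolism, the pathway of Arg2, 1 of 17 genes was called, close to the 4.86% of all genes called higher: Odc1, the ornithine decarboxylase that uses the ornithine made by arginase (1.73 ± 0.32, higher).

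Against the same 2 control libraries, the KO arrest libraries gave another picture. The genes did not move as a group. Tdpoz4 rose from 0.265 and 7.06 FPKM to 63.9 to 89.2, a log2 fold change of 4.66 ± 1.08 (adjusted p = 0.0107), and Tdpoz3 rose from 0 and 0.402 FPKM to 2.46 to 7.18 (2.37 ± 0.60, adjusted p = 0.0167). These 2 of 8 members compare with 16.4% of all genes called higher. Among embryos Tdpoz3 reached 1 FPKM only in the 3 KO arrest libraries, so it entered the test only through the group where it is high and had to differ, and its call adds no support to that count. No member was called lower, where 8.87% of all genes were. Usp17lc lay below both controls in all 3 libraries (56.8 ± 23.2 FPKM, SD, against 142 ± 60.0; log2 fold change −1.33 ± 0.52, adjusted p = 0.0860), while Arg2 lay above both (1.03 ± 0.47, adjusted p = 0.134). Groups were thus apart and higher for 3 of 8 members, as for 31.3% of all genes, and apart and lower for 1, as for 17.5%. Zfp352 (0.36 ± 0.65), Tdpoz2 (0.43 ± 0.74), Tdpoz1 (−0.81 ± 0.78) and Tmem92 (−0.84 ± 0.75) overlapped the controls. The Tdpoz4 call was lost with a pseudocount of 0.1 (adjusted p = 0.0623), and that of Tdpoz3 with no filter (0.0540) and with only these 2 groups in the fit (0.0523). Both Tdpoz calls were lost without control embryo 1 (3.32 for Tdpoz4 and 2.13 for Tdpoz3, adjusted p = 0.0794 and 0.0768), and the log2 fold change of Tdpoz4 was 6.00 without control embryo 2. Usp17lc passed with TPM (−1.84, adjusted p = 0.0359), with median-of-ratios scaling (−2.06, adjusted p = 0.0274) and without control embryo 2 (−1.77, adjusted p = 0.0420), and Tmem92 passed without control embryo 1 (−2.10, adjusted p = 0.0449). With TPM and with median-of-ratios scaling, the values of Zfp352 and Tdpoz2 changed sign without being called.

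Markers of other cells, of the oocyte and of later lineages differed in the KO arrest libraries. The summed level of 10 fibroblast markers was 0.0514 to 2.90 FPKM in KO arrest libraries, against 17.4 to 69.05 in control and 60.7 to 96.0 in KO embryos, and 7 of these 10 were at 0 in all 3 KO arrest libraries. That of 9 blood markers was 2.12 to 10.9 FPKM, against 78.1 to 195 in control and 233 to 362 in KO embryos. The 10 cumulus markers summed to 16.1 and 17.1 FPKM in control embryos, 1.49 to 5.95 in KO embryos and 0 to 2.82 in KO arrest libraries. Most of that drop was Tnfaip6, with means of 14.55 FPKM in control embryos, 0.775 in KO embryos and 1.14 in KO arrest. It was the only 1 of the 10 at 1 FPKM or more in both controls, where 4 were at 0. Some of the rest, such as Inhba, had a higher mean in KO embryos (1.035 FPKM) than in control embryos (0.246). The drop is thus not shared across the list. Of 10 pluripotency markers, 3 were called higher and 2 lower in KO arrest than in control embryos, of 6 trophectoderm markers tested 2 were called higher, and of 15 oocyte markers 6 were called lower and 1 higher. Of all genes tested, 16.4% were called higher and 8.87% lower, so the smaller of these counts can lie near these shares. The 6 of 15 oocyte markers called lower are above the 8.87%. That count can include markers tested only through embryos where they are high, as 3 of the 16 were at 0 in all 3 KO arrest libraries. The part of these markers in the results on KO arrest was not tested. Among 31 other genes of the two-cell stage, 7 were called higher in KO arrest than in control embryos (16.4% of all genes were) and 9 lower (8.87%). Those that rose with the smallest p were Pramel7 (3.93 ± 0.46), the nuclear body gene Sp110 (2.90 ± 0.53), the transporter gene Abcb5 (2.77 ± 0.56) and Pramel6 (3.71 ± 0.82), and 6 of those that fell were the Zscan4 genes. Abcb5 was at 0 and 0.222 FPKM in control embryos and entered the test only through knockout libraries, where it is high. Its call therefore adds no support to the count of 7. Usp17la, a copy of Usp17lc, was called lower as well (adjusted p = 0.0219), with 2.86 and 24.1 FPKM in control embryos and a listing at 0 in all 3 KO arrest libraries. Of 19 regulators of the two-cell programme 2 rose, a share not above the 16.4% of all genes: Dppa2 (3.83 ± 0.33) and Dppa4 (2.10 ± 0.57). Of the 17 genes of arginine and polyamine metabolism 3 rose, a share near the 16.4% of all genes: Sat1, which acetylates polyamines for breakdown (3.79 ± 0.33), Odc1 (1.72 ± 0.32) and the spermidine synthase gene Srm (1.55 ± 0.50). Gatm, which uses arginine for creatine synthesis, was called lower (adjusted p = 0.0149) and listed at 0 in all 3 KO arrest libraries. Among embryos it reached 1 FPKM only in the controls, so it was tested only through the group where it is high.

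The comparison of KO arrest with KO embryos holds the genotype label constant and asks what goes with the arrest label. Arg2 rose from 16.5 ± 7.15 FPKM (SD, n = 3) to 78.5 ± 17.8 (SD, n = 3), 4.75-fold higher (log2 fold change 2.23 ± 0.42, SE; adjusted p = 0.0124). Tdpoz4 rose from 9.17, 0 and 11.7 FPKM to 63.9 to 89.2 (3.996 ± 0.96, adjusted p = 0.0298) and Tdpoz3 from 0.457 ± 0.166 to 5.57 ± 2.69 FPKM, SD (2.08 ± 0.54, adjusted p = 0.0394). These 3 of 8 members compare with 4.93% of all genes called higher, and 0 of 8 with 3.65% called lower. Here too Tdpoz3 entered the test only through the KO arrest libraries, and its call adds no support to the count. Usp17lc, 3.35-fold higher in the mean, had every KO arrest library above every KO embryo library and an adjusted p of 0.0541 (1.64 ± 0.46). Zfp352 (1.63 ± 0.58, adjusted p = 0.110), Tdpoz2 (0.95 ± 0.66), Tdpoz1 (−0.13 ± 0.70) and Tmem92 (−1.13 ± 0.67) did not pass. In 4 of 8 members the KO arrest libraries were all higher, as in 19.4% of all genes tested, and in Tmem92 they were all lower, as in 17.7%.

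With 1 library fewer these calls were often lost while the differences stayed of like size. The count over all genes fell as well, from 1012 to between 285 and 742 when a KO arrest or KO embryo library was left out. Arg2 was at 2.02 without KO embryo 1 (adjusted p = 0.0546) and at 2.13 without KO embryo 3 (0.0508). Tdpoz3 ran from 1.87 to 2.15 in the 5 settings in which its call was lost, without KO arrest 1 or 2 or any KO embryo library (adjusted p = 0.0822 to 0.125). Tdpoz4 lost its call without any KO arrest library or KO embryo 1 (3.92 to 4.50, adjusted p = 0.0559 to 0.1003), and without KO embryo 2, its library at 0, the difference was 2.83 (0.0794). With the replicate number as a block the Tdpoz3 and Tdpoz4 calls were lost too (0.0821 and 0.0575), and likewise with a pseudocount of 0.1, no filter or TPM (0.0721 to 0.108). Usp17lc passed with only these 2 groups in the fit (adjusted p = 0.0264) and without control embryo 1 (0.0253) or 2 (0.0237). Other genes of the two-cell stage that rose were Gm5662 (4.36 ± 0.55), Gm2016 (4.22 ± 0.57), Gm8300 (3.18 ± 0.60) and BB287469 (5.03 ± 1.18). In all, 7 of 31 were called higher (4.93% of all genes were) and 2 lower (3.65%). Dppa2 rose (1.49 ± 0.29) and Pcgf6, of the repressive complex PRC1.6, fell (−1.61 ± 0.33). These were 1 higher and 1 lower of 19 regulators, near the 4.93% and 3.65% of all genes. Sat1 was the only 1 of 17 genes of arginine and polyamine metabolism to pass (2.75 ± 0.29, higher), also near the 4.93%.

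**Figure D3:**
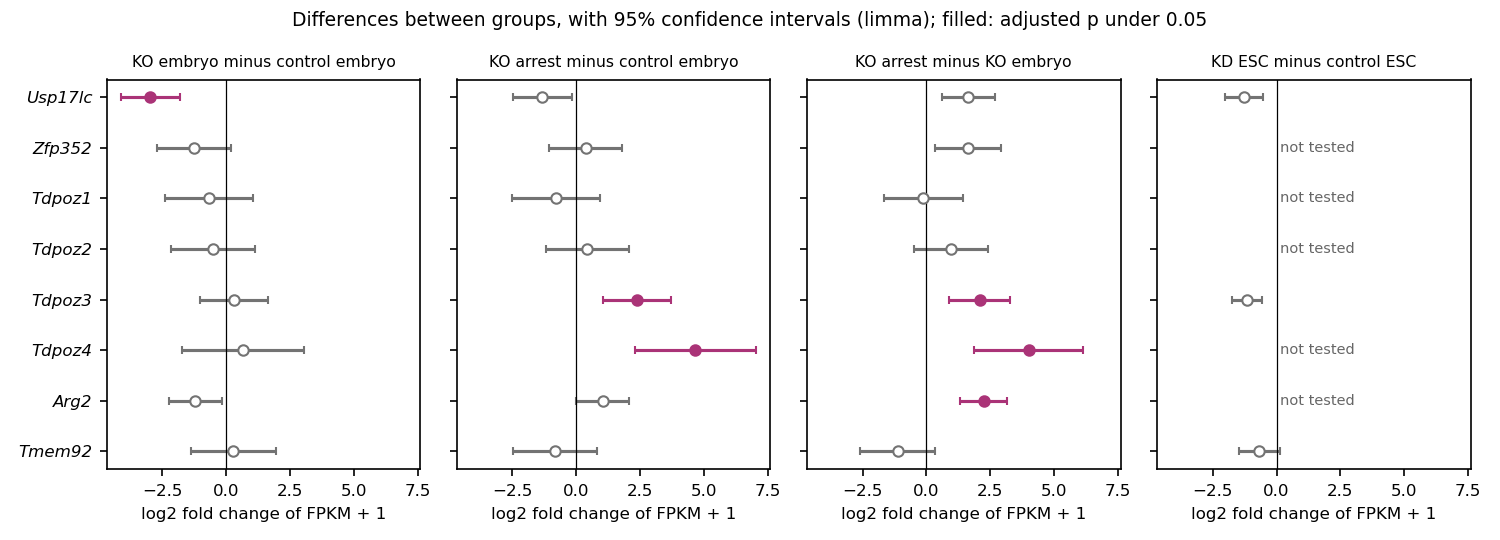
Log2 fold change of FPKM + 1 for each gene (rows) in the comparisons of embryos and of ES cells (panels), with 95% confidence intervals. Filled points have an adjusted p under 0.05: Usp17lc in KO embryos (−2.97), Tdpoz3 and Tdpoz4 in KO arrest against control embryos, and Tdpoz3, Tdpoz4 and Arg2 in KO arrest against KO embryos. The comparisons of embryos share libraries, so their panels are not independent.

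In ES cells the question is what goes with the Dcaf11 knockdown. Only Usp17lc, Tdpoz3 and Tmem92 reached 1 FPKM in at least 2 of the 4 libraries and were tested. None was called (limma), where 6.23% of all 12264 genes were. At an unadjusted p under 0.05 were 2 of these 3 and 3706 of the 12264 genes. Usp17lc was at 1.06 ± 0.618 FPKM (SD, n = 2) in KD ESC against 3.91 ± 0.590 (n = 2), 3.68-fold lower (−1.28 ± 0.28, SE; adjusted p = 0.0703). Tdpoz3 was at 0.235 ± 0.141 against 1.78 ± 0.130 FPKM (−1.18 ± 0.22, adjusted p = 0.0559), and Tmem92 at 0.764 ± 0.566 against 1.74 ± 0.203 (−0.67 ± 0.30, adjusted p = 0.219). In all 3 both KD libraries lay below both controls, an arrangement found in 37.1% of all genes tested. Since these 3 passed a filter that asks for 1 FPKM in 2 libraries, which only the controls met for Tdpoz3, their number says nothing of the remaining members. Of those, Zfp352, Tdpoz4 and Arg2 had levels under 1 FPKM in all 4 libraries, and Tdpoz1 and Tdpoz2 were listed at 0. Of 17 other genes of the two-cell stage tested, 10 were called lower and 0 higher (446 and 318 of all 12264 genes), 5 of the 10 being Zscan4 genes, with BB287469 (listed at 0 in both KD libraries, adjusted p = 0.0215), Gm2016 (−1.86 ± 0.16), Gm5662 (−1.88 ± 0.18) and Gm8300 (−2.56 ± 0.34) among the rest. BB287469, Gm8300 and some of the Zscan4 genes reached 1 FPKM only in control ESC, where they are high. They entered the test only through that group, so their calls add no support to the count of 10. Gm2016 and Gm5662 reached 1 FPKM in all 4 libraries. KD ESC 1 had the lowest depth of the ES cell libraries (coverage of 0.566 at 1 FPKM, against 0.907 to 1.08).

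Whether the effect in embryos differed from that in ES cells was tested in the fit of all 12 libraries. For KO embryos no member was called, where 2.69% of all 14447 genes were (limma). At an unadjusted p under 0.05 were 2 of 8 members and 2650 of the 14447 genes. The difference was −1.69 ± 0.70 for Usp17lc (adjusted p = 0.235) and 1.47 ± 0.58 for Tdpoz3 (0.214). On the FPKM scale Usp17lc was 8.36-fold lower in KO embryos and 3.68-fold lower in KD ESC, and with a pseudocount of 0.1 the difference was −1.15 (adjusted p = 0.569). For KO arrest, a test added after seeing the data, 1 of 8 members was called (14.0% of all genes were, and 9.07% higher). It was Tdpoz3, with a difference of 3.54 ± 0.58 (adjusted p = 0.00471), higher in KO arrest and lower in KD ESC than in the respective controls. It entered the fit of 12 libraries only through KO arrest and control ESC, the groups where it is high. Without control embryo 2 the difference in KO embryos was called for Tmem92 (2.21, adjusted p = 0.0365), and that in KO arrest for Tdpoz4 (6.58, adjusted p = 0.0157). The latter was also called without KO embryo 2 (adjusted p = 0.0112).

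Within the 8 embryo libraries the genes did not run together as one group. Over the 28 pairs of the 8 genes, Pearson's r of log2(FPKM + 1) ranged from −0.632 for Arg2 with Tmem92 to 0.888 for Tdpoz3 with Tdpoz4, with a median of 0.205, and 9 pairs were below 0. Arg2 and Zfp352 had r = 0.745, and Tdpoz1 and Tdpoz4 had r = −0.473. These values are descriptions over libraries that share their groups. Across all 12 libraries, where the gap between embryos and ES cells sets most of the value, the genes most like Zfp352 were BB557941 (r = 0.991), Limch1 (0.988) and the water channel gene Aqp9 (0.988), and those most like Arg2 were Aqp9 (0.988), Aqp11 (0.982) and Apol7b (0.980). Usp17lc was most like Rpa3 (0.960), Tank (0.959) and Gm13109 (0.956). Tdpoz1 was most like Nedd1 (0.984), Gm12789 (0.982) and Yipf4 (0.980), and Tdpoz2 like 1110059E24Rik (0.969), B020004J07Rik (0.965) and Slc10a6 (0.962). The genes most like Tdpoz4 were Cox8c (0.983), Fam96b (0.974) and Iqcf5 (0.969), those most like Tdpoz3 Coq7 (0.942), Ccdc65 (0.910) and Prex2 (0.907), and those most like Tmem92 Rimkla (0.971), Tchh (0.951) and Dcun1d1 (0.939).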

How the data were processed

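The 12 libraries were made by Smart-seq2, per the labels' protocols. STAR 0.6.0, StringTie, DESeq2 and build mm9 are named per the submitters' processing notes, while the role of each tool and the annotation are not stated. The authors deposited FPKM, TPM and read coverage (a signal) per gene, and no counts, so read numbers and counting intervals are unknown. FPKM were summed per symbol. Unnamed rows, 0.549% to 1.19% of a library's FPKM, were left out.

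Groups came from the sample titles. limma 3.58.1 in R 4.3.3, with a variance trend, was run on log2(FPKM + 1) for genes that reached 1 FPKM in 2 or more libraries of a fit, with Benjamini-Hochberg adjustment over all of them and calls at 0.05. Embryo comparisons used 1 fit of 8 libraries (5 residual degrees of freedom), ES cells a fit of 4 (2), and the rest a fit of 12 (7). Only the embryo fit, for KO embryo against control embryo, was tested on simulated data. Alternatives were a pseudocount of 0.1, no filter, the deposited TPM, median-of-ratios scaling, the replicate number as a block, only the 2 groups compared, and each library left out. Figures and other tables used pandas 2.3.3, numpy 2.4.6 and matplotlib 3.10.9 under Python 3.11.15. GENCODE M21 transcripts and RefSeq promoters are of GRCm38.

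The members, lists and tests were chosen with earlier results of these data known. The genes named are all members, Dcaf11, up to 4 called genes of each list with the smallest p (Zscan4 genes as a count), and the 3 genes most like each member. Dux, Usp17lb, Usp17ld, Cdx2, Tfap2c, Tead4, Gata3, Eomes, Tnfaip6 and Inhba were named after their values were seen.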

Additional observations from a re-analysis of the deposited data

Results flagged for a closer look

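The effect on Tdpoz3 differed between embryos and ES cells when KO arrest libraries were used. In KO arrest every library lay above both control embryos, while in KD ESC both libraries lay below both control ESC. The difference of the 2 effects, a test added after seeing the data in the fit of all 12 libraries, was 3.54 ± 0.58 on the log2 scale (limma adjusted p = 0.00471), where 9.07% of all genes were called higher. For Tdpoz4 the same difference was 5.24 ± 1.55 (adjusted p = 0.0510). Only KO arrest and control ESC libraries of Tdpoz3 reached 1 FPKM, so the gene was tested only through the groups where it is high. It was under 10 FPKM in all libraries and shares most of its 50-base words with another gene.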

How the results depend on the processing

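Of 775 member values under the alternatives, 698 kept direction and call, 34 lost a call, 12 gained one and 31 changed sign, none of the last a called result. Where a setting left 1 control library, it was assumed to vary like the other groups. The cause of each change was not tested, other than that no filter tests more genes. Genes called, 750 for KO embryo against control embryo, were 269 with no filter, 76 with the replicate block and 228 with only 2 groups. KO arrest against control embryo gave 2976, and 1965 with the block; 1 member was called higher (in place of 2) with pseudocount 0.1, no filter or 2 groups, and 1 lower (in place of 0) with TPM or median-of-ratios scaling. KO arrest against KO embryo gave 1012, then 456 with no filter, 550 with the block and 2030 with 2 groups, and 1 member higher (in place of 3) with pseudocount 0.1, no filter, TPM or the block. KD ESC gave 764, then 313 with no filter and 26 with the block. Against control ESC, 0 members were lower in control embryos (in place of 1) with no filter or median-of-ratios scaling. The difference of effects gave 388 for KO embryo, then 257 with pseudocount 0.1 and 127 with the block, and 2028 for KO arrest, then 1279 with the block. The replicate numbers did not pair the libraries (correlations of deviations −0.101 to 0.0247), and the block changed no member call other than Tdpoz3 and Tdpoz4 in KO arrest against KO embryo.

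Leaving out 1 library, genes called ranged from 87 to 1817 (KO embryo; 0 to 1 member lower), 1983 to 3636 (KO arrest; 0 to 2 higher, 0 to 1 lower), 285 to 2023 (KO arrest against KO embryo; 0 to 4 higher), 13 to 686 (KD ESC), 5682 to 8651 (control embryo against control ESC; 5 to 6 higher, 0 to 1 lower), 39 to 2020 (difference, KO embryo; 0 to 1 higher) and 716 to 3592 (difference, KO arrest; 1 to 2 higher). Member values that changed sign ranged as follows. In KO embryo, Tdpoz1 ran from −1.78 to 0.41, Tdpoz4 from −0.67 to 2.00 and Tmem92 from −0.98 to 1.54. In KO arrest, Tdpoz1 ran from −1.91 to 0.28, Tmem92 from −2.10 to 0.41 and Zfp352 from −0.20 to 0.92. Tdpoz1 in KO arrest against KO embryo ran from −0.57 to 0.54, and Tdpoz4 in control embryo against control ESC from −0.24 to 2.43. In the difference for KO embryo, Tdpoz1 ran from −1.78 to 0.41, Tdpoz4 from −0.091 to 2.58 and Tmem92 from −0.30 to 2.21. In that for KO arrest, Usp17lc ran from −0.49 to 0.39, Tdpoz1 from −1.91 to 0.28 and Tmem92 from −1.43 to 1.08.

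Other sign changes were Tmem92 in KO embryo with median-of-ratios scaling (−0.28), Zfp352 and Tdpoz2 in KO arrest with TPM (−0.14 and −0.038) and with median-of-ratios scaling (−0.37 and −0.25), Zfp352 in the difference for KO embryo with pseudocount 0.1 (1.23), and, in that for KO arrest, Usp17lc and Tmem92 with pseudocount 0.1 (0.54 and 0.34) and Tdpoz2 with TPM (−0.038) and median-of-ratios scaling (−0.23). Scaling moved the split of calls. The share of called genes that were higher went from 76.4% to 35.9% in KO embryo with median-of-ratios scaling (median of all genes from 0.31 to −0.04), from 64.8% to 50.6% with TPM and 45.1% with median-of-ratios scaling in KO arrest (median from 0.45 to 0.22 and 0.04), from 57.4% to 29.3% with TPM in KO arrest against KO embryo (0.07 to −0.27), from 41.6% to 55.1% in KD ESC, and from 23.6% to 36.9% in control embryo against control ESC (−1.01 to −0.47), the last 2 with median-of-ratios scaling. In the difference it went from 76.8% to 38.9% (KO embryo) and from 64.6% to 48.8% with TPM and 43.9% (KO arrest).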
